A study of Schmidtea mediterranea with 35 samples.

Results

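The control arm of an RNAi time course in planarian stem cells was examined across its days: 11 of the 35 libraries of the series, chosen because their labels name unc22 as the RNAi target. They comprise 4 libraries at day 6 (replicates 1 to 4), 4 at day 9 (replicates 1 to 4) and 3 at day 13 (replicates 1, 4 and 5). The animals were adults of CIW4, a single clonal line of the flatworm Schmidtea mediterranea, so the libraries represent 1 genetic background. All were fed bacteria that made double-stranded RNA, mixed into calf liver paste, in repeated feedings, and the control groups received RNA of unc22, which the labels call non-targeting. The 24 other libraries come from worms fed double-stranded RNA of zfp1 (12 libraries) or p53 (12 libraries) and sampled on the same days, and serve here only for the spread and for a comparison of day changes. The controls share the feeding, the bacteria and the cell sort with the knockdowns, and no unfed or day 0 library was used here, so a change between days joins elapsed time, feeding history and harvest, which cannot be told apart. Each day was a separate time point of harvest. The labels do not say that replicates are separate groups of animals; the p-values are therefore set against library-to-library spread alone, part or all of which may be technical.

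Neoblasts are the dividing somatic stem cells of planarians and the source of all of their differentiated cells. They are sorted after Hoechst staining of DNA as the X1 fraction, the cells with the high DNA content of S, G2 and M phase, and several transcriptionally distinct neoblast classes share that gate. zfp1 and p53 are both known in planarians from the class of neoblasts that gives rise to the epidermis, and unc22 is named for a muscle gene of the nematode Caenorhabditis elegans. The table pairs no identifier with a gene name, so the markers of neoblasts, of epidermal progeny, muscle, gut and nerve could not be looked up, and the labelled cell type was not checked against them. For the same reason the transcripts below carry their identifiers, and the length in bases recovered from the values, in place of gene names and roles.

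The control libraries held 7467144 to 18534723 reads, and replicate 5 of day 13 stood apart from the other 10 libraries. It had 4546 transcripts at 0, against 695 to 2887 in the other 10, at a depth of 11272890 reads that lies within their range. Its 100 most abundant transcripts took 52.7% of its reads, against 37.3 to 43.3% in the others. Its median transcript was at 1.18 RPKM (reads scaled to transcript length and a divisor for each library), against 1.57 to 1.83 RPKM. That divisor was 0.617 of the total reads in replicate 5, against 0.886 to 1.12 in the other 10. All RPKM values of replicate 5 are thus higher than scaling to total reads would make them, also in the comparisons below. The first principal component of the 11 libraries, with 38.5% of the variance, placed it at 87.3 and the others between -20.9 and 5.75. Pearson's r on log2(RPKM + 1) was 0.947 to 0.965 between it and the others and 0.959 to 0.99 among the others. Its deviation from day 13 replicates 1 and 4 ran with the deviation of zfp1 day 6 replicate 1 from its own group (r = 0.551 across 19206 transcripts, which are not independent replicates) and with that of zfp1 day 13 replicate 5 (r = 0.578). The counts of calls at day 13 and the day 13 changes of the transcripts named in the controls are therefore given with and without it. Day 9 replicate 2 was the shallowest control and had the most transcripts at 0 among the other 10. On the second principal component, with 19.4% of the variance, it lay at -52.85 and all other controls between -15.12 and 25.57. The lowest r among the other 10, 0.959, was between it and day 6 replicate 2.

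**Figure D1:**
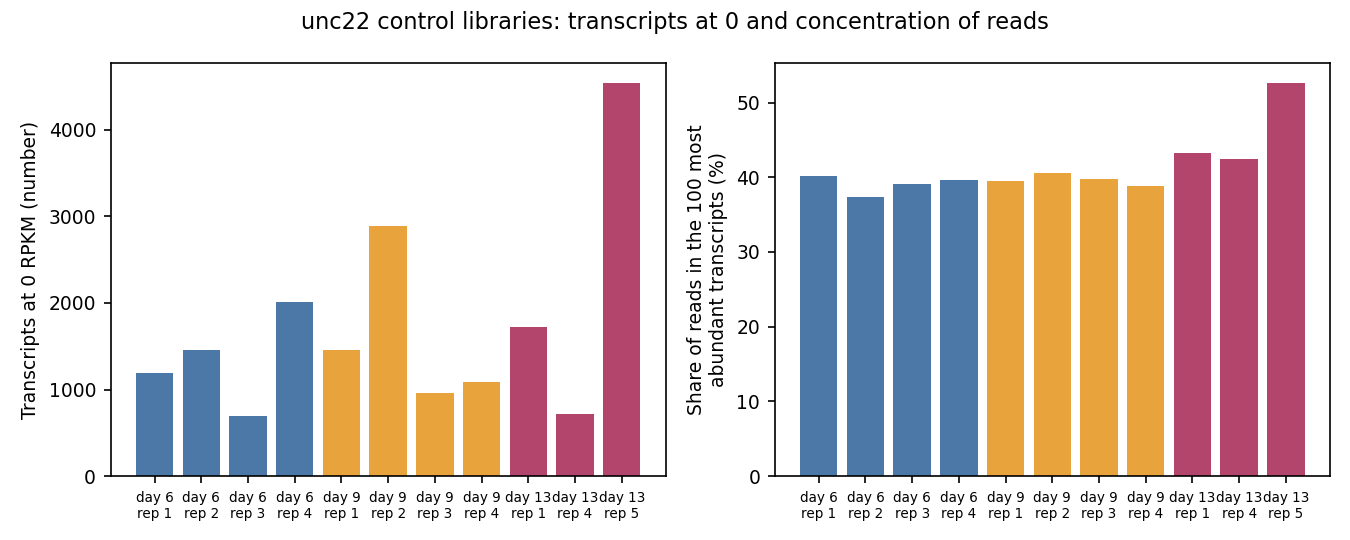
Number of transcripts at 0 RPKM (left) and percent of reads in the 100 most abundant transcripts (right) in each unc22 control library, one bar per library, coloured by day. Day 13 replicate 5 has the tallest bar in both panels, with 4546 transcripts at 0 and 52.7% of reads.

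Between day 6 and day 9 very few transcripts moved past the test, and between day 6 and day 13 many more did. The number at day 13 and its split between higher and lower varied with the libraries in the fit. In limma on log2(RPKM + 1), with 9 group means and the spread shared over all 35 libraries, 2 of 19206 transcripts (0.0104% of those tested) differed at day 9 over day 6 at an adjusted p under 0.05, both lower at day 9. At day 13 over day 6 the number was 329 (1.71%), 214 higher and 115 lower at day 13. At day 13 over day 9 it was 50 (0.26%), 28 higher and 22 lower. Against the mean of days 6 and 9, day 13 had 313 calls (1.63%), 211 higher and 102 lower. These comparisons share libraries, so their counts are not independent of each other. In bulk samples such as these, fewer cells of a type and less RNA per cell cannot be told apart.

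Without day 13 replicate 5 the counts at day 13 fell to 81 over day 6 (0.422%, 41 higher and 40 lower), 7 over day 9 (0.0364%, 3 higher and 4 lower) and 50 over the mean of days 6 and 9 (0.26%, 30 higher and 20 lower), while day 9 over day 6 had 2 calls again. When the fit used the 11 control libraries alone, day 13 over day 6 gave 206 calls (1.07%), and with the 10 that leave out replicate 5 it gave 238 (1.24%), 145 higher and 93 lower. Day 13 over day 9 gave 0 calls in limma on the 11 controls (2800 transcripts had an unadjusted p under 0.05) and 0 on the 10 (1602), against 40 by limma-voom on recovered reads of all 35 libraries. Day 9 over day 6 gave 0 calls on the 11 controls, with 1680 transcripts at an unadjusted p under 0.05, and 4 of 19206 on the 10, 1 higher and 3 lower. When replicate 5 was left out together with 2 zfp1 libraries, replicate 1 of day 6 and replicate 5 of day 13, the fit of the other 32 libraries called 314 at day 13 over day 6 (1.63%, 192 higher and 122 lower) and 37 at day 13 over day 9 (0.193%, 19 higher and 18 lower). At day 9 over day 6 the fit of these 32 libraries called 19 of 19206, 7 higher and 12 lower. The near-even split of 41 and 40 at day 13 over day 6 thus belonged to 1 of these 3 fits without replicate 5. Single libraries other than replicate 5 also moved the counts. Day 13 over day 6 gave 173, 153 and 166 calls without day 6 replicates 1, 2 and 3, and 630 and 543 without zfp1 day 6 replicate 1 and zfp1 day 13 replicate 5, which enter through the shared spread. Day 13 over day 9 gave 21 without day 9 replicate 3 and 21 without day 9 replicate 4, and 104 and 115 without the same 2 zfp1 libraries. Day 13 over the mean of days 6 and 9 gave 199 and 207 without day 9 replicates 3 and 4, and 533 and 519 without these zfp1 libraries. The median SD of log2(RPKM + 1) over transcripts was 0.168 at day 6 (n = 4), 0.233 at day 9 (n = 4) and 0.313 at day 13 (n = 3), and 0.116 at day 13 without replicate 5 (n = 2).

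**Figure D2:**
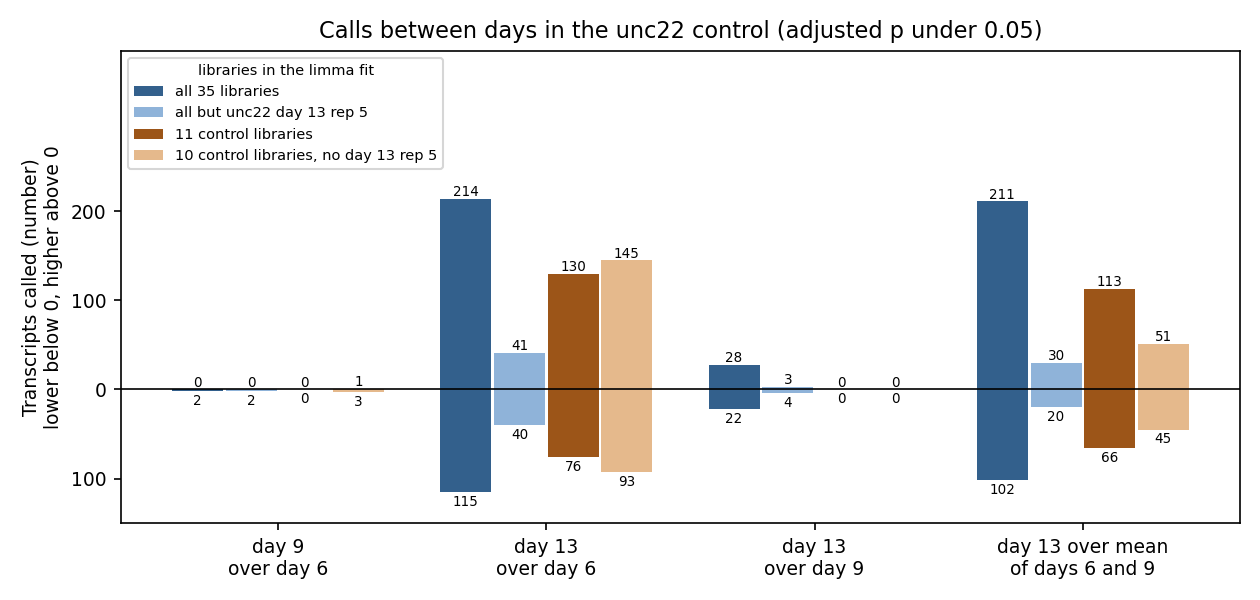
Number of transcripts called higher (above 0) and lower (below 0) in 4 comparisons between days of the unc22 control, for 4 choices of the libraries in the limma fit. Day 13 over day 6 has the tallest bars in every choice of libraries, and its excess of higher calls, 214 against 115, is 41 against 40 when day 13 replicate 5 is left out of the 35.

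At day 9 both called transcripts were lower than at day 6 and lower again at day 13. SMED30009191 (1332 bases) stood at 7.42, 6.92, 7.53 and 7.0 RPKM at day 6, 2.68, 3.75, 2.69 and 2.36 RPKM at day 9 and 1.035, 1.08 and 1.295 RPKM at day 13. The 3 days did not overlap, and the 4 day 6 libraries lay close together. Its log2 change at day 9 over day 6 was -1.1 ± 0.13 (SE; limma adjusted p = 2.6e-05), and the call held in all fits that left out 1 library but not in the fit of the control libraries alone. SMED30000316 (3430 bases) stood at 23.3, 22.6, 23.01 and 24.4 RPKM at day 6, 13.95, 17.3, 13.3 and 15.02 RPKM at day 9 and 10.2, 9.645 and 8.68 RPKM at day 13. Again no library of one day reached into the range of another. Its log2 change at day 9 over day 6 was -0.62 ± 0.11 (limma adjusted p = 0.039), close to the threshold. It lost the call in 20 of the 35 fits that left out 1 library and in both fits of control libraries alone.

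At day 13 over day 6, SMED30009191 had the lowest fold change of the calls whose libraries did not overlap, -1.945 ± 0.14 on the log2 scale (limma adjusted p = 1.5e-10), and -2.0 ± 0.16 without replicate 5. Its mean was 7.22 ± 0.30 RPKM at day 6, 2.87 ± 0.606 RPKM at day 9 (SD, n = 4 each) and 1.14 ± 0.139 RPKM at day 13 (SD, n = 3). SMED30008024, a long transcript of 5811 bases, stood at 13.2, 12.2, 10.9 and 12.4 RPKM at day 6, 6.9, 6.66, 6.41 and 6.51 RPKM at day 9 and 4.2, 3.51 and 1.16 RPKM at day 13. Replicate 5 was the lowest library of all 11 for it, and day 13 lay below the other days without that library as well. Its change at day 13 over day 6 was -1.83 ± 0.25 (limma adjusted p = 7.1e-05) with replicate 5 and -1.44 ± 0.25 without it, a call in both fits. SMED30007957 (1028 bases) stood at 4.5, 5.36, 4.55 and 4.2 RPKM at day 6, 2.71, 2.35, 1.54 and 1.975 RPKM at day 9 and 0.575, 0.838 and 0.559 RPKM at day 13. The day 13 values rest on 6, 15 and 4 reads, and every library of day 13 was below every library of day 9, and these below every library of day 6. Its change at day 13 over day 6 was -1.77 ± 0.19 (limma adjusted p = 1.4e-06), and -1.73 ± 0.22 without replicate 5.

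Of the transcripts that were higher at day 13, SMED30034178 (533 bases) stood at 3.86, 4.51, 4.27 and 1.31 RPKM at day 6, 9.32, 7.945, 6.41 and 5.54 RPKM at day 9 and 16.4, 16.2 and 20.2 RPKM at day 13. The groups did not overlap, and day 9 lay between days 6 and 13. Its change at day 13 over day 6 was 2.12 ± 0.30 (limma adjusted p = 8.8e-05), and 2.025 ± 0.34 without replicate 5. SMED30018539 (870 bases) stood at 1.54, 0.576, 0.922 and 1.47 RPKM at day 6, 1.9, 2.955, 2.205 and 2.44 RPKM at day 9 and 5.55, 4.29 and 7.6 RPKM at day 13. It too had 3 days without overlap, with replicate 5 the highest library. Its change was 1.68 ± 0.225 (limma adjusted p = 5.7e-05), and 1.495 ± 0.25 without replicate 5. The highest log2 change among calls without overlap belonged to SMED30015328 (452 bases), which stood at 12.3, 18.6, 27.7 and 66.3 RPKM at day 6, 92.1, 95.03, 19.6 and 34.5 RPKM at day 9 and 219, 141 and 106 RPKM at day 13. Day 13 lay above day 6 in every library, but the replicates of days 6 and 9 spread widely and overlapped each other. Its change was 2.49 ± 0.65 (limma adjusted p = 0.040). Without replicate 5 the estimate was 2.73 ± 0.74 and no longer passed, and it also missed the threshold without day 6 replicates 1, 2 or 3 and without day 13 replicates 1 or 4, each left out alone.

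**Figure D3:**
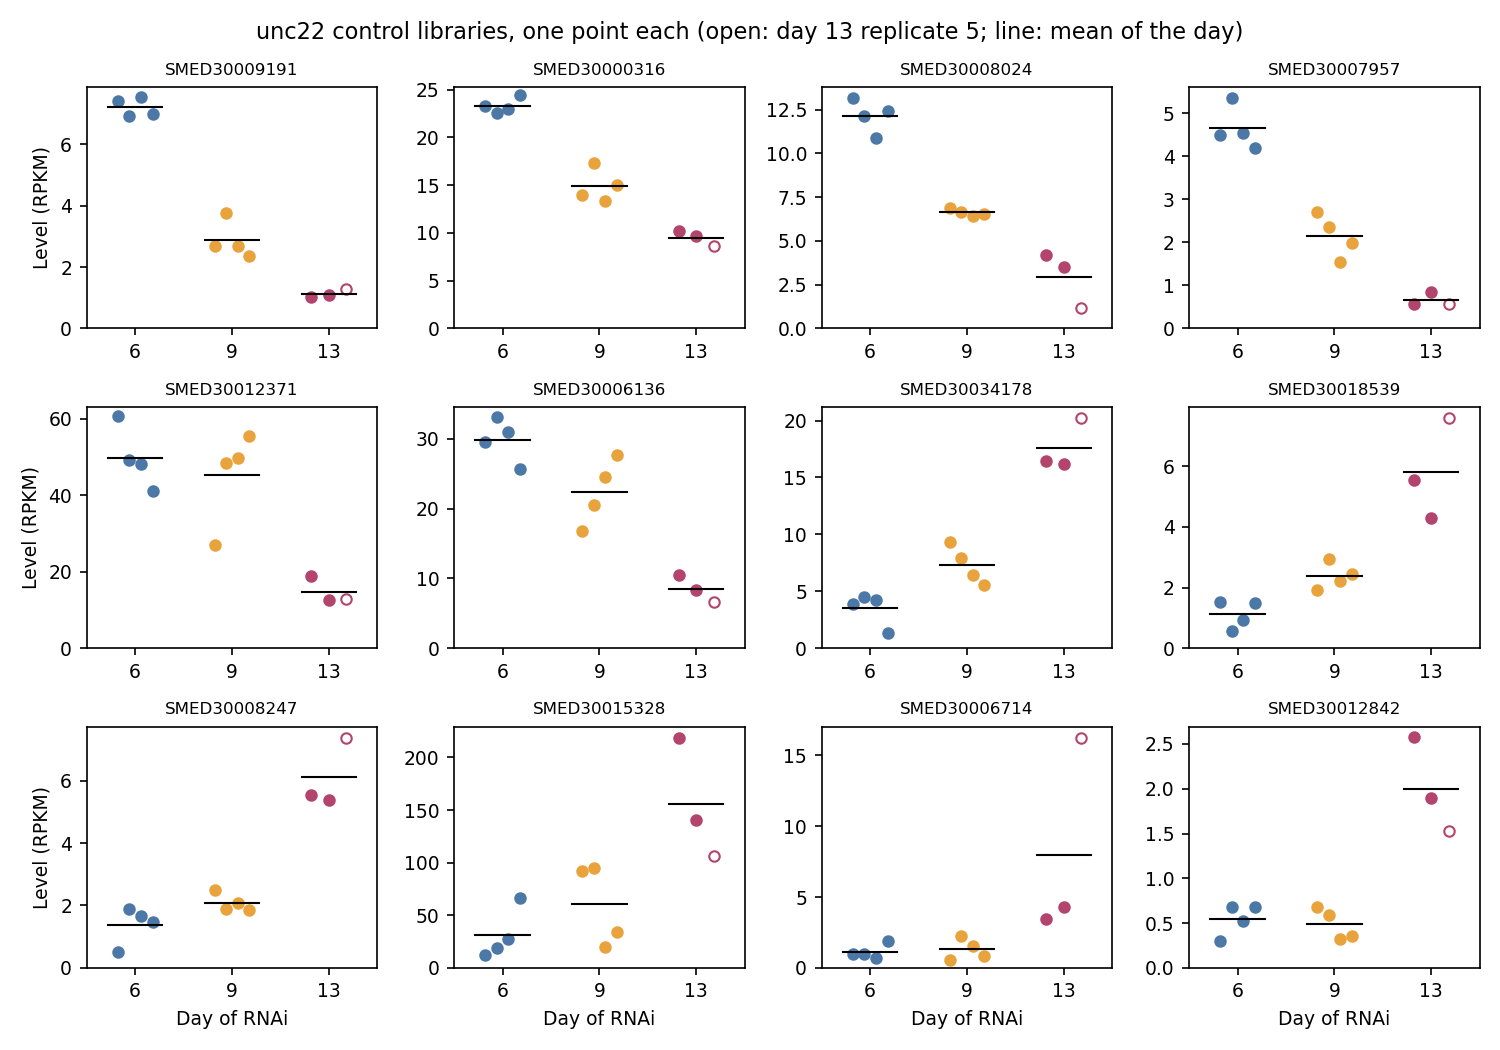
RPKM of 12 transcripts in the 11 unc22 control libraries by day of RNAi, one point per library and a line at the mean of each day, on axes that start at 0. Open circles mark day 13 replicate 5, which lies far from the other day 13 points in SMED30006714 (16.2 RPKM) and SMED30008024 (1.16 RPKM).

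The calls of day 13 over day 6 were compared between the fits with and without replicate 5, all other libraries being kept. These fits shared 73 transcripts, 22.2% of the 329 and 90.1% of the 81. Day 13 was higher for 39 of them and lower for 34. This overlap does not show how many of the 329 depend on replicate 5, since the count without replicate 5 varied with the other libraries. That count was 238 on control libraries alone. It was 314 when zfp1 day 6 replicate 1 and zfp1 day 13 replicate 5 were also left out. Both fits on control libraries alone also called 26 of the 39 and 27 of the 34. These lists were chosen by the same contrast, so their levels are a description. The 39 had median levels of 3.49 RPKM at day 6, 5.79 RPKM at day 9 and 8.17 RPKM at day 13 (8.72 RPKM without replicate 5), with log2 changes of 0.44 to 2.12 and a median of 0.95 (0.94 without replicate 5). The 34 had medians of 5.69, 3.03 and 1.92 RPKM on these days (1.73 RPKM at day 13 without replicate 5), with log2 changes of -1.95 to -0.46 and a median of -1.10 (-1.03 without replicate 5). Over all 19206 transcripts the median levels were 3.8, 3.68 and 3.55 RPKM, and the median log2 change was -0.03. Both lists held longer transcripts than the median of all tested, 1515 bases for the 39 and 1324 for the 34 against 1074.

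The day 9 levels of these 73 are likewise a description, since the day 6 means they are set against helped to choose the lists and the day 9 libraries entered the shared spread. Relative to the mean of the day 6 controls, the median of the 39 was 0.31, 0.36, 0.18 and 0.22 on the log2 scale in day 9 replicates 1 to 4, and 0.94, 0.90 and 1.04 in day 13 replicates 1, 4 and 5. The median of the 34 was -0.47, -0.38, -0.36 and -0.35 in the day 9 libraries and -1.12, -1.0 and -1.09 in the day 13 libraries. All 4 day 9 libraries thus sat on the day 13 side of day 6 in both lists and short of every day 13 library. The 2 calls of day 9 over day 6, SMED30009191 and SMED30000316, are both among the 34.

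The other 256 calls appeared in the fit of all 35 libraries and not when replicate 5 alone was left out of it, 175 higher and 81 lower. Since that difference between fits chose them, the position of replicate 5 for these lists follows in part from the choice and is a description. The 175 were abundant transcripts, with a median of 20.4 RPKM at day 6, 24.8 RPKM at day 9 and 36.9 RPKM at day 13 (31.5 RPKM without replicate 5). In replicate 5 they lay a median of 0.62 on the log2 scale above the mean of replicates 1 and 4, against -0.06 over all transcripts tested and 0.25 for the 39. The same 175 lay 0.34 above the rest of their group in zfp1 day 6 replicate 1, where all transcripts lay at -0.13, and 0.26 above it in zfp1 day 13 replicate 5, where all lay at -0.12. The 81 had medians of 3.22, 2.52 and 1.45 RPKM (1.78 RPKM at day 13 without replicate 5), against 3.8, 3.68 and 3.55 RPKM over all transcripts tested. In replicate 5, 11 of the 81 were at 0, and 1517 of all 19206. Without replicate 5 the log2 changes of the 175 ranged from 0.35 to 2.73 and those of the 81 from -1.28 to -0.40, so each kept its direction. That they missed the threshold there is how the lists were chosen, and the 2 fits share all other libraries.

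At day 13 over day 9, the transcripts with the lowest fold changes differed in how they stood at day 9 relative to day 6. SMED30012371 (1178 bases) stood at 60.6, 49.1, 48.2 and 41.1 RPKM at day 6, 27.1, 48.5, 49.6 and 55.5 RPKM at day 9 and 18.8, 12.5 and 12.8 RPKM at day 13. Days 6 and 9 overlapped, and all 3 day 13 libraries lay below them. Its change was -1.53 ± 0.25 over day 9 (limma adjusted p = 0.0029) and -1.7 ± 0.25 over day 6, and it was called in both without replicate 5, at -1.45 ± 0.28 and -1.62 ± 0.28. SMED30006136 (1554 bases) stood at 29.5, 33.2, 31.03 and 25.7 RPKM at day 6, 16.8, 20.5, 24.6 and 27.7 RPKM at day 9 and 10.5, 8.35 and 6.57 RPKM at day 13. Its day 13 libraries also lay below all others. Of the day 9 libraries, replicates 1 to 3 were below every day 6 library and replicate 4 was within their range. Its change was -1.3 ± 0.23 over day 9 (limma adjusted p = 0.0053) with replicate 5 and -1.15 ± 0.255, not a call, without it. SMED30008476 (1813 bases) stood at 2.27, 3.04, 2.84 and 2.7 RPKM at day 6, 3.08, 2.67, 3.04 and 2.95 RPKM at day 9 and 0.706, 1.27 and 1.11 RPKM at day 13. It was level at the first 2 days and lower in every day 13 library, with a change of -0.965 ± 0.13 over day 9 (limma adjusted p = 0.00079) and -1.0 ± 0.15 without replicate 5. None of these held in the fits of control libraries alone, which made no call at day 13 over day 9.

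Both rises at day 13 over day 9 that the naming rule took without replicate 5 were of weak transcripts. SMED30012842 (1032 bases) stood at 0.299, 0.68, 0.518 and 0.678 RPKM at day 6, 0.675, 0.586, 0.323 and 0.358 RPKM at day 9 and 2.58, 1.89 and 1.53 RPKM at day 13. Its days 6 and 9 rest on 3 to 8 reads per library and its day 13 on 27, 34 and 11 reads, and day 13 lay above all other libraries. Its change was 1.01 ± 0.16 over day 9 (limma adjusted p = 0.0027), and 1.12 ± 0.17 without replicate 5. SMED30016020 (564 bases) stood at 0.1825, 0.178, 0.593 and 0.207 RPKM at day 6, 0.309, 0, 0.148 and 0.327 RPKM at day 9 and 1.57, 1.43 and 2.29 RPKM at day 13, that is 9, 14 and 9 reads at day 13 against 2, 0, 1 and 2 at day 9. Its change over day 9 was 1.205 ± 0.18 (limma adjusted p = 0.0020), and 1.07 ± 0.20 without replicate 5. Adding 1 RPKM before the log makes these changes smaller than the ratios of the levels. The 2 highest changes with replicate 5 included, SMED30018252 at 1.76 ± 0.37 and SMED30035215 at 1.795 ± 0.40, were 1.46 ± 0.41 and 1.35 ± 0.42 without it and no longer called. SMED30018252 stood at 5.78, 14.2 and 17.9 RPKM in day 13 replicates 1, 4 and 5, against 3.23, 3.14, 1.88 and 2.67 RPKM in the day 9 libraries.

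Set against the mean of days 6 and 9, the highest change of day 13 belonged to SMED30006714 (744 bases), which stood at 0.968, 0.943, 0.719 and 1.88 RPKM at day 6, 0.5855, 2.24, 1.57 and 0.868 RPKM at day 9 and 3.44, 4.32 and 16.2 RPKM at day 13. Replicate 5 alone was several times above the other 2 day 13 libraries, which were themselves above all libraries of days 6 and 9. Its change was 1.78 ± 0.28 (limma adjusted p = 0.00038), and 1.17 ± 0.25, still a call, when replicate 5 alone was left out of the 35 libraries. In the fit of control libraries alone without replicate 5 it was not a call. SMED30008247 (799 bases) stood at 0.515, 1.88, 1.67 and 1.46 RPKM at day 6, 2.51, 1.89, 2.09 and 1.85 RPKM at day 9 and 5.55, 5.39 and 7.38 RPKM at day 13. Its day 13 libraries lay together above the rest, with a change of 1.4 ± 0.17 (limma adjusted p = 1.9e-05) and 1.28 ± 0.20 without replicate 5. For day 9 against the mean of days 6 and 13, limma made 0 calls with 887 transcripts at an unadjusted p under 0.05. limma-voom on recovered reads made 0 with 737. The fit without control day 13 replicate 5, zfp1 day 6 replicate 1 and zfp1 day 13 replicate 5 called 1 of 19206, lower at day 9.

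The zfp1 and p53 libraries gave a measure of the same day change that shares no library with the controls, although the fit pools the spread of all. Same-numbered libraries of a day may also vary together between arms, which was not tested. The arms therefore cannot be taken as independent of each other. At day 13 over day 6, 251 transcripts (1.31%) were called after zfp1 RNAi, 116 higher (0.604%) and 135 lower (0.703%). After p53 RNAi 1147 (5.97%) were called, 735 higher (3.83%) and 412 lower (2.15%). Of the 39 transcripts that were higher in the controls, 7 were called higher and 0 lower after zfp1 RNAi, and 12 higher and 1 lower after p53 RNAi. Their median log2 change was 0.28 after zfp1 RNAi and 0.27 after p53 RNAi, against 0.95 in the controls, which chose them, and against 0.05 and -0.02 for all transcripts tested in the zfp1 and p53 libraries. Of the 34 that were lower in the controls, 15 were called lower and 0 higher after zfp1 RNAi, and 18 lower and 0 higher after p53 RNAi. Their median log2 change was -0.45 after zfp1 RNAi and -0.46 after p53 RNAi, against -1.10 in the controls. Of all 329 control calls, 42 were called the same way after zfp1 RNAi (15 higher and 27 lower) and 67 after p53 RNAi (30 higher and 37 lower). Called the opposite way were 1 of the 214 higher and 1 of the 115 lower after zfp1 RNAi, and 7 of the 214 and 6 of the 115 after p53 RNAi. Without control day 13 replicate 5 the counts called the same way were 24 and 36. The zfp1 count was 95 without zfp1 day 6 replicate 1. The p53 count was 40, 39 and 38 without control day 6 replicates 1, 2 and 3, and 133 and 103 without zfp1 day 6 replicate 1 and zfp1 day 13 replicate 5. When control day 13 replicate 5, zfp1 day 6 replicate 1 and zfp1 day 13 replicate 5 were all left out, zfp1 RNAi called 6 of the 39 higher and 0 lower, and 15 of the 34 lower and 1 higher, where 1.54% and 1.04% of all transcripts were called higher and lower. p53 RNAi called 15 of the 39 higher and 2 lower, and 20 of the 34 lower and 3 higher, where 7.37% and 6.03% of all were called. The days of harvest are the same in all 3 arms, so elapsed time and harvest cannot be told apart here either.

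**Figure D4:**
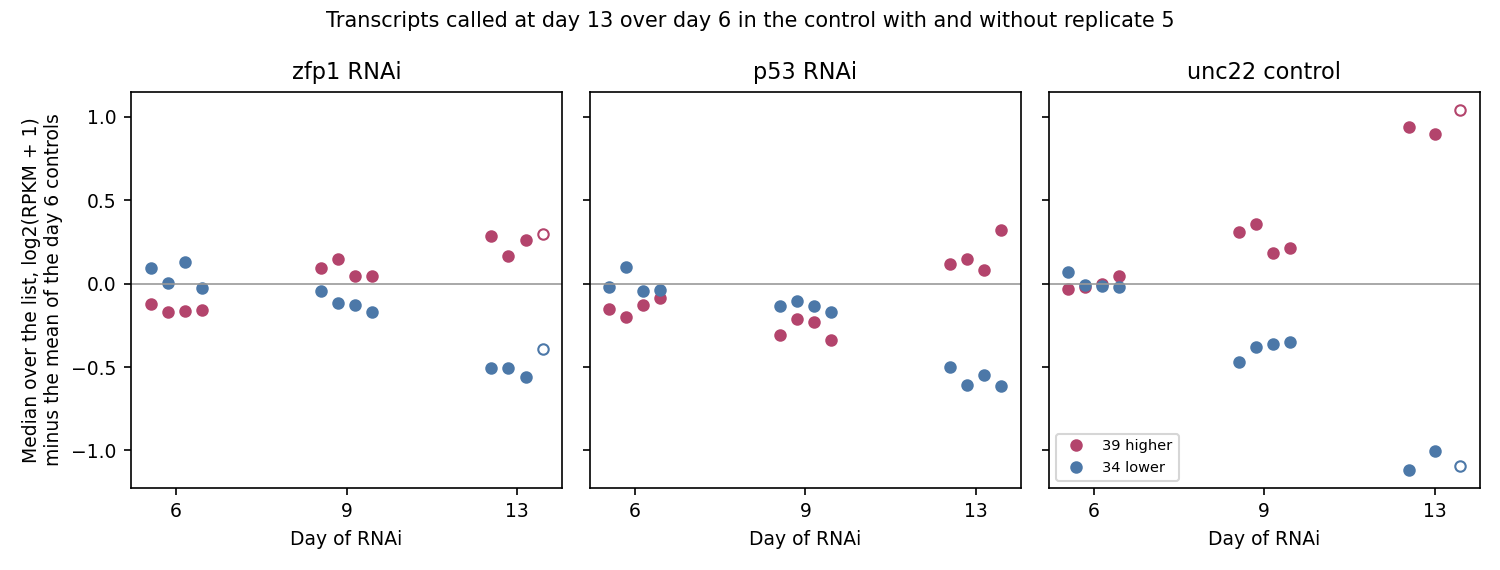
Median over the 39 higher and the 34 lower transcripts of log2(RPKM + 1) minus the mean of the day 6 controls, one point per library, by day, after zfp1 RNAi, p53 RNAi and in the unc22 control; open circles mark day 13 replicate 5 of zfp1 RNAi and of the control. In the controls the 39 reach 0.90 to 1.04 and the 34 -1.12 to -1.0 at day 13, and in the zfp1 libraries of day 13 they reach 0.17 to 0.30 and -0.56 to -0.39.

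The single transcripts behaved in more than one way across the arms. SMED30009191 was called lower at day 13 over day 6 in all 3 arms, with log2 changes of -1.59 ± 0.13 after zfp1 RNAi (limma adjusted p = 3.6e-09), -1.72 ± 0.13 after p53 RNAi (limma adjusted p = 1.3e-10) and -1.945 ± 0.14 in the controls. At day 9 over day 6, where 0.349% of transcripts were called after zfp1 RNAi and 0.0104% after p53 RNAi, it was also called lower in all 3, with log2 changes of -0.78 ± 0.13 after zfp1 RNAi, -0.82 ± 0.13 after p53 RNAi and -1.1 ± 0.13 in the controls. SMED30008024 was called lower at day 13 over day 6 in all 3, with log2 changes of -1.52 ± 0.23 after zfp1 RNAi, -0.95 ± 0.23 after p53 RNAi and -1.83 ± 0.25 in the controls. SMED30000316 changed by -1.1 ± 0.11 after zfp1 RNAi, -0.47 ± 0.11 after p53 RNAi and -1.215 ± 0.12 in the controls (-1.16 ± 0.13 without replicate 5), all of them calls.

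For other transcripts the day change of the controls differed from that of the knockdowns, with the difference itself past the test. SMED30012371 stood at 69.2, 74.97, 70.5 and 101 RPKM at day 13 and 93.8, 54.2, 56.8 and 35.7 RPKM at day 6 after zfp1 RNAi. After p53 RNAi it stood at 109, 90.6, 135 and 176 RPKM at day 13 and 88.96, 75.8, 79.8 and 58.7 RPKM at day 6. After zfp1 RNAi the days overlapped. After p53 RNAi every day 13 library lay above every day 6 library, and in the controls every day 13 library lay below. The log2 change at day 13 over day 6 was 0.45 ± 0.23 after zfp1 RNAi and 0.71 ± 0.23 after p53 RNAi, neither a call, against -1.7 ± 0.25 in the controls. The knockdown change exceeded that of the controls by 2.15 ± 0.34 for zfp1 (limma adjusted p = 0.0017) and by 2.41 ± 0.34 for p53 (limma adjusted p = 6.4e-05), and by 2.07 ± 0.36 and 2.33 ± 0.36 without control replicate 5. SMED30006136 had log2 changes of 0.18 ± 0.21 after zfp1 RNAi and 0.67 ± 0.21 after p53 RNAi, neither a call, against -1.72 ± 0.23 in the controls, a difference of 1.9 ± 0.31 for zfp1 and 2.39 ± 0.31 for p53. Without control replicate 5 its change in the controls was -1.57 ± 0.255 and the differences were 1.75 ± 0.33 and 2.23 ± 0.33. SMED30008247 had log2 changes of -0.12 ± 0.18 after zfp1 RNAi, not a call, where it was at most at 0.437 RPKM in any library of days 6 and 13, and of -0.69 ± 0.18 after p53 RNAi, against 1.61 ± 0.19 in the controls. Its difference was -1.72 ± 0.26 for zfp1 (limma adjusted p = 0.0016) and -2.3 ± 0.26 for p53 (limma adjusted p = 2.4e-06). Without control replicate 5 its change in the controls was 1.48 ± 0.215 and the differences were -1.6 ± 0.28 and -2.18 ± 0.28. All 6 differences of these 3 transcripts were calls in both fits, but those of zfp1 were not in a fit of the zfp1 and control libraries of these days alone. These transcripts were named for their change in the controls, and SMED30012371 also as the highest called zfp1 difference at day 13. The size of their differences therefore depends in part on that choice.

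Over all transcripts, the change at day 13 over day 6 differed between zfp1 RNAi and the controls for 46 (0.24%), 25 with the knockdown change above that of the controls and 21 below, and between p53 RNAi and the controls for 376 (1.96%), 275 above and 101 below. Without control day 13 replicate 5 these counts were 36 (0.187%) and 194 (1.01%). In a fit of the zfp1 and control libraries of these days alone, limma called 0 for zfp1, with 766 transcripts at an unadjusted p under 0.05, against 41 by limma-voom over all 35 libraries. At day 9 over day 6 the counts were 1 for zfp1 (0.00521%) and 0 for p53, where 780 transcripts had an unadjusted p under 0.05 in limma and limma-voom also made 0 calls, with 736. The 1 transcript, SMED30002500 (972 bases), stood at 4.41, 3.75, 5.91 and 5.82 RPKM at day 9 and 29.8, 17.75, 13.6 and 16.3 RPKM at day 6 after zfp1 RNAi, against 2.42, 2.49, 2.66 and 3.8 RPKM at day 9 and 3.92, 3.61, 2.75 and 3.0 RPKM at day 6 in the controls. It was thus level in the controls and higher in every zfp1 library of day 6 than in the other libraries given here, and the difference was -1.55 ± 0.26 (limma adjusted p = 0.026), a call that was lost in 8 of the 35 fits that left out 1 library.

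**Figure D5:**
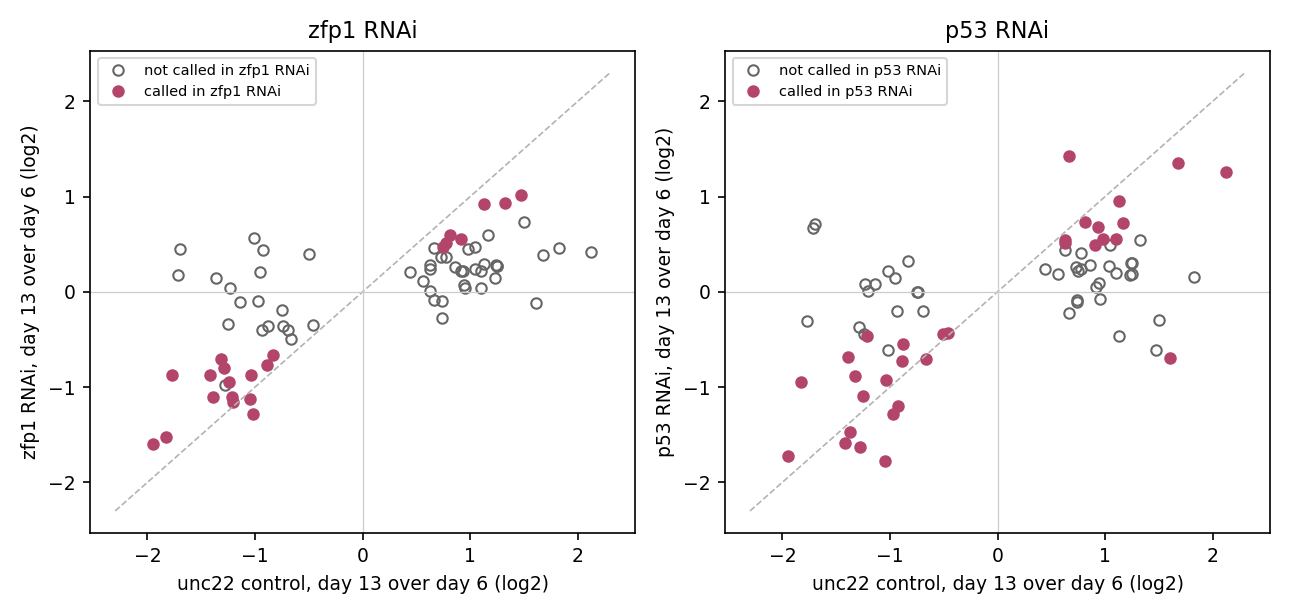
Log2 change at day 13 over day 6 of the 73 transcripts called in the controls with and without replicate 5, after zfp1 RNAi (left) and p53 RNAi (right) on the vertical axis against the controls on the horizontal axis; filled points were called in that knockdown and the dashed line marks equal change. The medians of the 34 lower transcripts are -0.45 and -0.46 after zfp1 and p53 RNAi against -1.10 in the controls, and SMED30012371 and SMED30006136 lie above 0 in both panels.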

How the data were processed

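The authors deposited 1 table of RPKM values for 25462 transcripts in 35 libraries of polyA RNA; the tools listed in the submitters' processing notes are Bowtie, edgeR and CASAVA 1.8.2, without their roles, and which transcript assembly was used is not given in the sources used here. Dividing out length and a divisor for each library recovered whole reads (numpy 2.4.6). All values of 100% of transcripts were whole within 0.01 reads, which gave depths and lengths. Over the 35 libraries the divisor was 0.617 to 1.21 of the total reads, so the deposited RPKM values are not scaled to total reads alone. RPKM values are not counts, so groups were compared with limma 3.58.1 (R 4.3.3) on log2(RPKM + 1), a mean for each of 9 groups, a trended empirical Bayes spread and Benjamini-Hochberg adjustment, called at an adjusted p under 0.05. The test covered 19206 transcripts that reached 1 RPKM in 3 or more libraries and left out 6256. The fits were tested on simulated data. No pair of replicates came within sampling noise (lowest chi-square per transcript 1.68). The members, lists and the rule for naming transcripts (for each comparison, the 2 highest and 2 lowest changes among calls whose libraries do not overlap, again without day 13 replicate 5, and 1 each way for differences between RNAi groups) were chosen with earlier results of these data known.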

Additional observations from a re-analysis of the deposited data

Results flagged for a closer look

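Library depth drew attention once: day 6 replicate 3 held 13939902 reads and lay far above the other 3 day 6 controls, at 8385967 to 9248019 reads. In the same library SMED30016020 stood at 0.593 RPKM, from 5 reads, against 0.178 to 0.207 RPKM, from 1 read each, in the other 3. In 50 such checks of a library against its group 2 were picked out, and chance picks out about 1 in 20.

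The change at day 13 over day 6 differed between zfp1 RNAi and the controls, by limma's test of the difference, for SMED30012371 (2.15 on the log2 scale), SMED30006136 (1.9), SMED30008247 (-1.72) and SMED30002134 (-3.57). SMED30002134 (616 bases) stood at 0.374, 0.199, 0.0748 and 0 RPKM at day 13 and 59.9, 11.3, 12.7 and 8.79 RPKM at day 6 after zfp1 RNAi, against 26.2, 17.5 and 25.7 RPKM at day 13 and 51.1, 22.8, 30.9 and 22.3 RPKM at day 6 in the controls. At day 9 over day 6 the difference for zfp1 was -1.55 for SMED30002500. For p53 RNAi against the controls, the change at day 13 over day 6 differed for SMED30012371 (2.41), SMED30006136 (2.39), SMED30007957 (1.46), SMED30000316 (0.75), SMED30012842 (-1.03), SMED30006714 (-1.68), SMED30008247 (-2.3), SMED30013183 (3.38) and SMED30004081 (-2.73). Without control day 13 replicate 5 all of these differences at day 13 were called again except that of SMED30006714. In fits of only the libraries compared no zfp1 difference was called at day 9 or day 13. The zfp1 difference of SMED30002134 was also lost at a pseudocount of 5 RPKM.

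SMED30013183 (930 bases) stood at 57.3, 63.9, 56.8 and 68.4 RPKM at day 13 and 5.23, 4.81, 5.44 and 6.34 RPKM at day 6 after p53 RNAi, against 5.29, 6.42 and 13.6 RPKM at day 13 and 8.19, 7.98, 5.97 and 12.7 RPKM at day 6 in the controls. SMED30004081 (1858 bases) stood at 4.45, 4.92, 2.97 and 3.28 RPKM at day 13 and 15.9, 10.5, 12.8 and 9.88 RPKM at day 6 after p53 RNAi, against 56.4, 65.75 and 94.2 RPKM at day 13 and 29.5, 26.1, 28.2 and 28.5 RPKM at day 6 in the controls. It thus moved in opposite directions in the 2 arms, by -1.435 ± 0.32 after p53 RNAi and 1.3 ± 0.34 in the controls, and the rise of the controls was 1.09 ± 0.39 and not a call without day 13 replicate 5. For SMED30006714 the difference of p53 was -1.07 ± 0.35 without that library and no longer called.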

How the results depend on the processing

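No transcript named by the rule changed direction under any alternative run, in the comparisons that named it. In the order day 9 over day 6, day 13 over day 6, day 13 over day 9, day 13 over the mean of days 6 and 9, and day 9 over the mean of days 6 and 13, leaving out 1 library gave 1 to 5, 81 to 630, 7 to 115, 50 to 533 and 0 to 1 calls. The lowest of these at day 13 came without control day 13 replicate 5 and the highest without zfp1 day 6 replicate 1 or zfp1 day 13 replicate 5. For differences of day changes the ranges were 0 to 5 (zfp1, day 9), 0 to 0 (p53, day 9), 29 to 71 (zfp1, day 13, lowest without zfp1 day 13 replicate 2 and highest without zfp1 day 6 replicate 2) and 194 to 553 (p53, day 13, and 248 without p53 day 13 replicate 3), and for control calls shared with zfp1 or p53 RNAi 24 to 95 and 36 to 133, both lowest without control day 13 replicate 5 and highest without zfp1 day 6 replicate 1. Fits of only the libraries compared gave 0, 206, 0 and 179 calls for the first 4 comparisons and 0 and 0 for the zfp1 differences at days 9 and 13; control libraries alone without replicate 5, chosen after seeing the data, gave 4, 238, 0 and 96. Leaving out that library and the 2 zfp1 libraries together gave 19 calls at day 9 over day 6, 314 at day 13 over day 6, 37 at day 13 over day 9, 207 for day 13 over the mean, 1 for day 9 over the mean, 11 and 13 for the zfp1 and p53 differences at day 9, 104 for the zfp1 difference at day 13 and 136 shared with p53.

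Library quality weights, whose estimation stopped before convergence, gave 779, 3688, 1772, 3050 and 529 calls, 45, 384, 635 and 2328 for the differences, and 386 and 875 shared calls. A mean of at least 5 RPKM gave 1 call at day 9 over day 6, 17 at day 13 over day 9, 179 over the mean, 28 and 105 for the day 13 differences and 23 and 34 shared calls, with fewer transcripts tested. A log2 minimum of 1 gave 1, 105, 16 and 61 calls, 248 for the p53 difference and 10 and 16 shared calls. Day 9 over day 6 had 1 call under median-ratio and 1 under quantile scaling. A pseudocount of 0.1 gave 32 calls at day 13 over day 9 and 0 for the zfp1 difference at day 9, and a pseudocount of 5 gave 105 at day 13 over day 9 and 1 for day 9 over the mean. limma-voom on recovered reads gave 0 for the zfp1 difference at day 9. The cause of these shifts was not tested.

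Across days, replicate numbers did not pair the controls: same-numbered libraries deviated from their group means with correlations of -0.42 to 0.25 over 8 pairs. Pairing of same-numbered libraries between arms within a day was not tested, and the main fit takes no account of it. SMED30015328, picked after its values were seen, stood at 92.1, 95.03, 19.6 and 34.5 RPKM in day 9 control replicates 1 to 4. In the same order it stood at 98.4, 128.7, 35.15 and 39.7 RPKM after zfp1 RNAi. After p53 RNAi it stood at 50.4, 43.2, 10.25 and 11.2 RPKM. The replicate block, with the same term for a replicate number on all days, gave 4, 227, 26 and 134 calls for the first 4 comparisons. It gave 1 for the p53 difference at day 9 and 82 for the zfp1 difference at day 13. The planned edgeR test was not run, since the deposited unit is RPKM. At the lowest control depth of 7467144 reads weak transcripts rest on few reads, such as the 3 to 8 of SMED30012842 at days 6 and 9. No limit of detection was computed.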

Other observations

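SMED30032887 (905 bases), singled out after its values were seen, was the most abundant transcript of every control library. It took 16.4, 13.7, 14.9 and 16.2% of reads at day 6, 15.5, 14.5, 15.9 and 15.1% at day 9, and 18.7, 18.9 and 27.5% in day 13 replicates 1, 4 and 5. Its log2 change at day 13 over day 6 was 0.89 ± 0.37 (SE), and 0.51 ± 0.38 without replicate 5, and neither passed the test. For 9 of the 11 control libraries the nearest other control by Pearson's r was of the same day, and day 6 replicate 4 and day 9 replicate 1 were nearest to each other (r = 0.988).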
